A study of Homo sapiens with 6 samples.

Results

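The insulin-like growth factor binding protein family was described in 2 human mammary cell lines grown with and without the DNA methylation inhibitor decitabine (DAC), through its 7 genes, IGFBP1 to IGFBP7. They are 7 of the 23617 gene symbols in the MDA-MB-231 table, and 1 of them, IGFBP3, is also among the 1854 symbols of the HMLER table. The family was chosen on its own untreated and DAC values, compared in direction between the cell lines, so these values are given as a description and carry no test. All 7 genes entered by name as members of the family. IGFBP3 is the member whose values ran in opposite directions in the 2 lines, and such a comparison was part of the choice.

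MDA-MB-231 comes from a human breast cancer, and HMLER was obtained by transforming human mammary cells in culture. Treated cells of both lines received 10 µM DAC, a cytidine analogue that blocks DNA methyltransferases, and were collected after 72 h, whereas control cells received no treatment. PolyA RNA was sequenced from 6 libraries, each prepared from pooled independent extractions, namely 2 of DAC-treated HMLER, 2 of untreated HMLER, 1 of each kind for MDA-MB-231. The cell line field of the untreated MDA-MB-231 library carries another line number, and its title, which gives MDA-MB-231, was followed. The lines are established cultures, so neither group is a tissue, and a transcript level in such bulk RNA cannot tell fewer expressing cells from less RNA per cell. As each condition of MDA-MB-231 has a single library, its differences had no replicate check.

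Insulin-like growth factors, IGF1 and IGF2, are secreted hormones that drive growth and survival through the receptor tyrosine kinase IGF1R. Most of the IGF outside cells is held by IGFBPs, secreted proteins with cysteine-rich ends that bind the hormones, prolong their life in the circulation and keep them from the receptor until a protease cuts the carrier. IGFBP1 to IGFBP6 bind IGFs with high affinity, IGFBP7 binds them weakly, and several members also act on cells without IGF. In mammary epithelium and breast cancer the family is known both as a brake on IGF signalling and as a set of genes whose expression differs between tumour types.

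In MDA-MB-231, 5 of the 7 genes reached 1 FPKM (fragments mapped to a transcript, scaled by its length and by the total of mapped fragments) in at least 1 library, and 2, IGFBP2 and IGFBP5, did not. Of the 5, IGFBP6 was more than 2-fold higher in the DAC-treated library, IGFBP1 and IGFBP3 were more than 2-fold lower, and IGFBP4 and IGFBP7 lay within 2-fold. Over all 12396 symbols at 1 FPKM or more, 11.5% passed 2-fold in the higher direction and 5.86% in the lower one, and these shares stand beside the counts of a family chosen on the same values. The family was thus split in direction, with the median log2 change of its 5 measurable genes at -0.33 and that of all symbols at -0.09, both as differences of log2(FPKM + 1).

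DAC blocks the enzymes that methylate the cytosine of CpG dinucleotides, so the start regions of the genes are shown for their CpG content. They run from 250 bases before to 50 bases after the annotated start, were taken from RefSeq on GRCh38.p14, and were found for 5 of the 7 genes, without IGFBP1 and IGFBP7. The 3 printed are those of IGFBP3, which was lower in MDA-MB-231 and higher in HMLER after DAC, of IGFBP6, which was higher in MDA-MB-231, and of IGFBP4, the most abundant member, which lay within 2-fold. Each is written 5′ to 3′ on the strand of its gene, and capitals mark every CpG.
IGFBP3, chr7:45921223-45921522, minus strand: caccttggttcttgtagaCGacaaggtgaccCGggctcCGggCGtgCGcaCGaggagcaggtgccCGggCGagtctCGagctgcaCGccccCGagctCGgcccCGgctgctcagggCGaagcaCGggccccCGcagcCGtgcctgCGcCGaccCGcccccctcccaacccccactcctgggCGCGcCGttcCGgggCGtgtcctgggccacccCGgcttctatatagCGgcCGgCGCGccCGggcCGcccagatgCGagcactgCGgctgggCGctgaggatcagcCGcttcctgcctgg
IGFBP6, chr12:53097417-53097716, plus strand: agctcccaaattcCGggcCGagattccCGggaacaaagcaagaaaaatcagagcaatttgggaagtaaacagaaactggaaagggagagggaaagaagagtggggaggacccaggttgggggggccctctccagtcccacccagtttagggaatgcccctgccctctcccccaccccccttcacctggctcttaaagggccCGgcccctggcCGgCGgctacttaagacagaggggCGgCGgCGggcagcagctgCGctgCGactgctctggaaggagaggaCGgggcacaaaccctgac
IGFBP4, chr17:40443200-40443499, plus strand: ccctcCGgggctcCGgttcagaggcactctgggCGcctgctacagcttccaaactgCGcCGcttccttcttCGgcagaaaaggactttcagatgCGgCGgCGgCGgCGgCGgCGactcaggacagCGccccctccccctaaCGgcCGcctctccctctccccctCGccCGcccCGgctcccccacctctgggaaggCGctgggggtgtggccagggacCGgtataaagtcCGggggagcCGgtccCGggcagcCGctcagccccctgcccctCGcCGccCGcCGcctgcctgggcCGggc

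The IGFBP3 start region held 36 CpGs, more than in 87.3% of the 35114 promoters of the table, with a GC content of 74.7% and a CpG observed/expected ratio of 0.867. The IGFBP4 region came close to it, with 30 CpGs, a GC content of 74% and a ratio of 0.746. In contrast, the IGFBP6 region held 12 CpGs, which is under the median of 14 over all promoters, and its ratio of 0.422 was also under the median of 0.579. No relation between CpG content and the change after DAC can be read from 3 chosen regions, and DNA methylation of these regions was not analysed here.

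The other start regions were mixed. IGFBP5 had 9 CpGs in 1 region, and IGFBP2, with 3 annotated starts, had 28, 8 and 6. Among short core motifs searched on both strands, TATATA was found in the IGFBP3 region (3.99% of all promoters hold it), TATAA in that of IGFBP4 (20.4%) and TTTAAA in that of IGFBP5 (12.2%), whereas the IGFBP6 region held none of the 3. The GC box core GGGCGG, which 45.0% of all promoters hold, occurred 2 times in each of the IGFBP3 and IGFBP4 regions and 1 time in that of IGFBP6. TATAA and TATATA can overlap in part. These are matches of letters only.

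In untreated MDA-MB-231 cells, the family was led by IGFBP4 and IGFBP3, at 178.7 FPKM (Cuffdiff bounds 90.9 to 266.5) and 172.9 FPKM (85.0 to 260.9). They were followed by IGFBP7 at 89.2 FPKM, IGFBP1 at 26.2 FPKM and IGFBP6 at 24.8 FPKM. IGFBP2, at 0.172 FPKM, and IGFBP5, at 0.00389 FPKM, closed the order. The bounds are those that Cuffdiff gave to each value in place of a replicate spread. Those of neighbours in this order overlapped, except between IGFBP6 (9.41 to 40.1) and IGFBP2 (0 to 0.512), and those of IGFBP4 and IGFBP3 lay wholly above those of IGFBP1 and IGFBP6.

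In the DAC-treated library the order changed in the middle. IGFBP4 remained first at 142.0 FPKM, and IGFBP7 came second at 80.2 FPKM. IGFBP6 and IGFBP3 then stood almost level, at 67.0 and 63.6 FPKM, ahead of IGFBP1 at 10.3 FPKM, IGFBP2 at 0.443 FPKM and IGFBP5 at 0.00391 FPKM. The bounds of the first 4 genes overlapped from neighbour to neighbour, those of IGFBP3 (34.6 to 92.6) lay above those of IGFBP1 (3.10 to 17.4), and those of IGFBP1 lay above those of IGFBP2 (0 to 1.20).

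**Figure D1:**
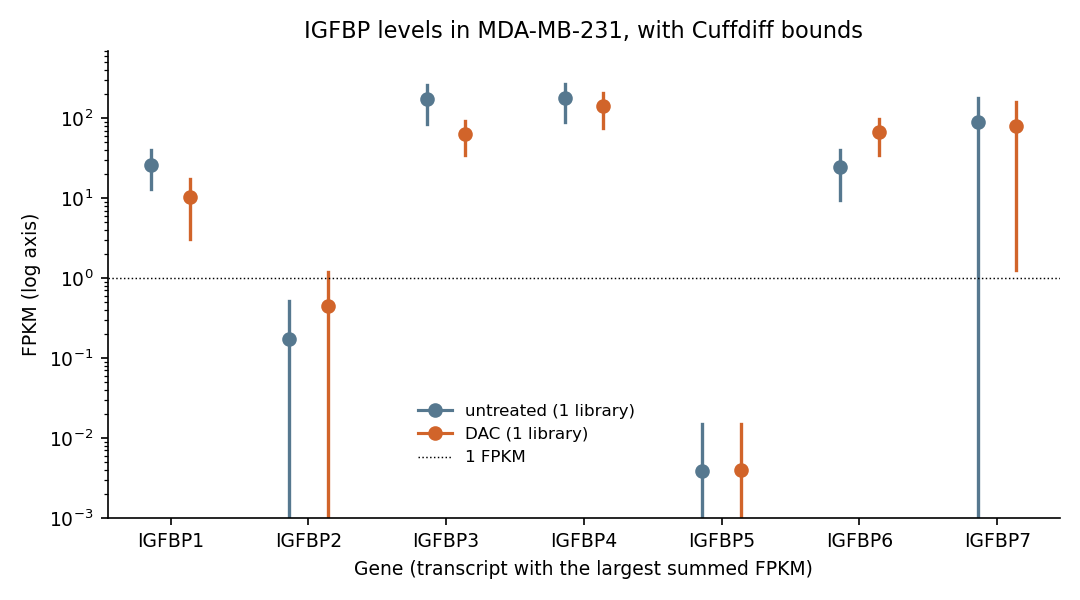
Levels of the 7 IGFBP genes in MDA-MB-231, in FPKM on a log axis, with points for the value of each library and lines for its Cuffdiff bounds (a bound of 0 is drawn at the foot of the axis). The lines of the untreated and the DAC-treated library overlap for every gene, and IGFBP2 and IGFBP5 lie under the dotted line at 1 FPKM.

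For each of the 7 genes, the bounds of the untreated and the DAC-treated library overlapped. Over all symbols at 1 FPKM or more, 179 (1.44%) had bounds that did not. The bounds were wide, reaching 50.8% of the value on either side for untreated IGFBP3 and 102% for untreated IGFBP7. At this precision, changes of the size seen for IGFBP1, IGFBP3 and IGFBP6 were not separated by the bounds, although at least 621 inferred reads lay behind each of their values.

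IGFBP3 is the main IGF carrier of serum, where it forms a ternary complex with the acid-labile subunit, and it is also a p53 target that can restrain growth without IGF. Untreated MDA-MB-231 cells had 172.9 FPKM of it and treated ones 63.6 FPKM, 2.72-fold lower. The log2 change was -1.43, which placed it in the lowest 1.52% of all symbols at 1 FPKM or more. From rank 523 of all symbols it moved to rank 1385. About 17711 and 6476 reads, inferred from the steps of the low FPKM values, stood behind these levels, and the second transcript of the gene (0.943 and 0.412 FPKM) left the ratio at 0.368 when both were summed.

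IGFBP1 is a carrier made mainly by the liver, kept in check by insulin, and it can also bind integrins. It was at 26.2 FPKM (12.9 to 39.6) in untreated cells and at 10.3 FPKM (3.10 to 17.4) after DAC, 2.55-fold lower, with a log2 change of -1.27. The direction was thus that of IGFBP3, its neighbour in the genome. On GRCh37, the build of the files, IGFBP1 (chr7:45927959-45933259, plus strand, 4 exons) and IGFBP3 (chr7:45951844-45961473, minus strand, 5 exons) point towards each other, with 18584 bases between their 3′ ends.

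IGFBP6 differs from the rest of the family by its preference for IGF2 over IGF1. It was the member that was higher after DAC, at 24.8 FPKM (9.41 to 40.1) without and 67.0 FPKM (34.9 to 99.1) with DAC. The ratio was 2.71 and the log2 change 1.40, above 96.3% of all symbols at 1 FPKM or more, and about 776 and 2087 reads were inferred. IGFBP6 (chr12:53491220-53496129, plus strand, 4 exons) moved from rank 3750 to rank 1303 among all symbols, the opposite of the move of IGFBP3. Its neighbours on the chromosome, SPRYD3 (11.3 and 9.08 FPKM) and SOAT2 (0.0126 and 0.0505 FPKM), were not called.

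IGFBP4, an inhibitor of IGF action that is cut by the pregnancy-associated plasma protein PAPPA, was at 178.7 FPKM before treatment and 142.0 FPKM (75.3 to 208.6) after it. Its ratio of 0.794 and log2 change of -0.33 placed it above 29.4% of all symbols at 1 FPKM or more, and it held rank 500 and then 511. The gene lies at chr17:38599702-38613977 on the plus strand, with 4 exons.

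IGFBP7, the low-affinity member, is a matrix protein described as a growth suppressor in several epithelia. Its values were 89.2 FPKM (0 to 180.1) without and 80.2 FPKM (1.25 to 159.1) with DAC, a ratio of 0.899 and a log2 change of -0.15. The gene spans 79613 bases (chr4:57896939-57976551, minus strand, 5 exons) and overlaps POLR2B, a subunit of RNA polymerase II, by 386 bases on the other strand, as well as UBE2CP3 (450 bases) and the antisense gene IGFBP7-AS1 (624 bases). POLR2B was at 76.9 and 59.8 FPKM. The use of strand in the counting is not given in the sources used here, so reads of these overlaps cannot be told apart. A second IGFBP7 transcript was at 2.25 and 1.13 FPKM, and the ratio of the summed values was 0.889.

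IGFBP2 and IGFBP5, carriers often seen in breast tissue and bone, were near the limit of detection in MDA-MB-231. IGFBP2 was at 0.172 FPKM (0 to 0.512) without and 0.443 FPKM (0 to 1.20) with DAC, about 8.84 and 22.6 inferred reads. Its ratio was 2.57, but as it stayed under 1 FPKM it was not called. IGFBP5 was at 0.00389 and 0.00391 FPKM, about 1.01 reads in each library. This is under the 3 reads taken as the detection floor, and no fold is given. These genes are also neighbours that point towards each other, IGFBP2 at chr2:217497551-217529159 on the plus strand and IGFBP5 at chr2:217536828-217560272 on the minus strand, with 7668 bases between them. The 7 genes thus included 2 facing pairs, 1 with both genes lower after DAC and 1 with both genes under 1 FPKM.

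**Figure D2:**
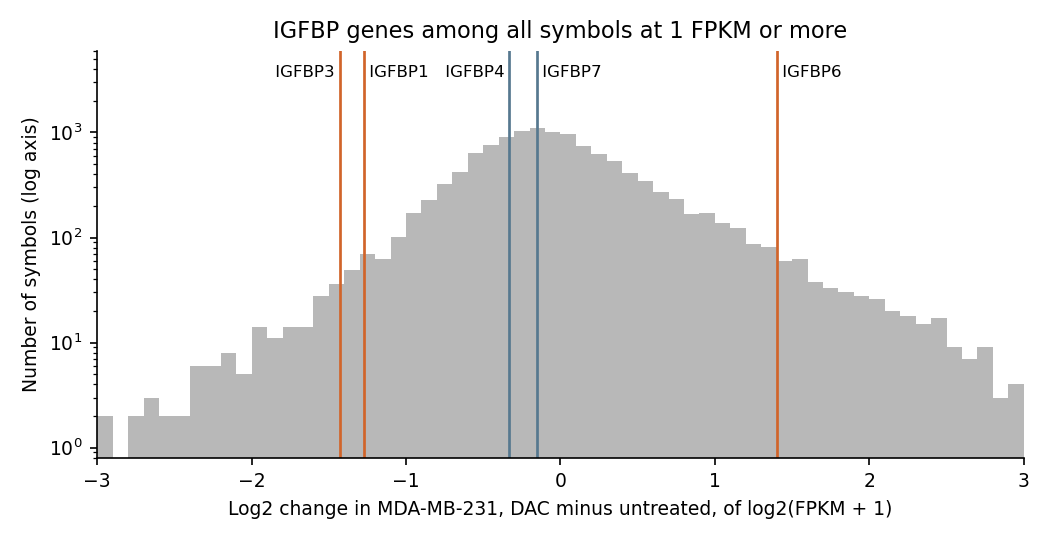
Number of symbols (log axis) by log2 change in MDA-MB-231, DAC minus untreated, of log2(FPKM + 1), for symbols that reached 1 FPKM, of which 133 lie beyond the axis limit of 3 in either direction. IGFBP3 (-1.43) and IGFBP1 (-1.27) lie in the left flank, IGFBP4 (-0.33) and IGFBP7 (-0.15) near the centre and IGFBP6 (1.40) in the right flank, with orange lines for genes past 2-fold and blue lines for the others.

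The values of the DAC-treated library ran slightly lower in general, with a median ratio of 0.908 (-0.14 on the log2 scale) over the 11057 symbols that reached 1 FPKM in both libraries. Relative to this median, the ratios were 0.405 for IGFBP3, 0.431 for IGFBP1, 0.875 for IGFBP4, 0.990 for IGFBP7 and 2.98 for IGFBP6. IGFBP7 therefore sat on the general shift, and the directions of IGFBP1, IGFBP3 and IGFBP6 were kept. The library sizes inferred from the FPKM steps differed little, at about 43.2 M and 42.9 M reads (M standing for 1e+06) for the untreated and the DAC-treated library. As the library scaling is not given, they may be scaled sizes and not the sequenced depth. The FPKM values summed to 589238 and 480455.

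The make-up of the family's transcripts shifted away from IGFBP3. Together the 7 genes reached 492.0 FPKM without and 363.5 FPKM with DAC, a ratio of 0.739. The sum over all transcripts of MDA-MB-231 also ran lower, from 589238 to 480455 FPKM, so a lower sum is not particular to the family. The net difference of 128.5 FPKM within the family was made of 171.1 FPKM less over the genes with lower values, of which IGFBP3 gave 109.3 and IGFBP4 36.8 FPKM, and of 42.3 FPKM more of IGFBP6. Without IGFBP3 the sums were 319.1 and 299.8 FPKM. IGFBP3 made up 35.1% of the sum in untreated and 17.5% in DAC-treated cells, while IGFBP6 made up 5.03% and 18.4%. In untreated cells there were 6.99 FPKM of IGFBP3 for each FPKM of IGFBP6, and after DAC 0.949. IGFBP4 was level with IGFBP3 in untreated cells (ratio 1.03) and 2.23 times its level after DAC.

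**Figure D3:**
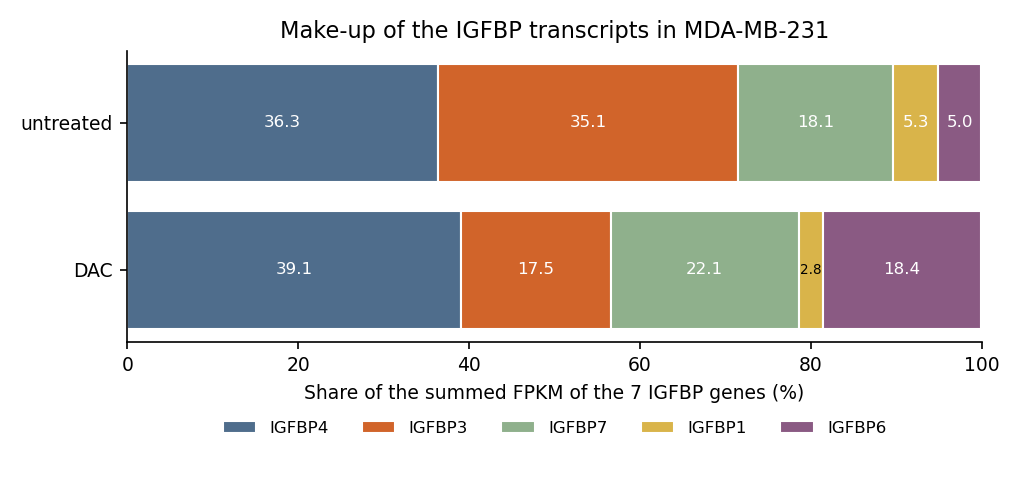
Share of each IGFBP gene (coloured segments, in percent) in the summed FPKM of the family in the untreated and the DAC-treated MDA-MB-231 library; IGFBP2 and IGFBP5 are too small to be drawn. The IGFBP3 segment shrinks from 35.1% to 17.5%, and the IGFBP6 segment widens from 5.03% to 18.4%.

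In HMLER the comparison could be made for IGFBP3 alone. The HMLER table has 1 merged value per condition for its 2 libraries, and holds transcripts that were more than 2-fold higher after DAC (lowest ratio 2.0), so the level and direction of the other 6 members in HMLER were not analysed here. HMLER cells had 5.12 FPKM of IGFBP3 without DAC and 18.6 FPKM with it, for the same transcript as in MDA-MB-231. The ratio of 3.64 stood in the middle of that table, as 50.5% of its symbols had a smaller one, and the gene ranked 282 and 263 of 1854 by level. The difference of log2(FPKM + 1) was 1.68 in HMLER and -1.43 in MDA-MB-231. The rule used these directions, and their difference was not tested.

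The HMLER table held 10.9% of the 12396 symbols that reached 1 FPKM in MDA-MB-231, and 0.363% (45 symbols) combined a place in it with a ratio under 1/2 in MDA-MB-231, as IGFBP3 did. These were 45 of the 1346 symbols held, beside the 5.86% (726) of all 12396 symbols with such a ratio. As the tables were normalized separately, levels can be set across them only roughly. On that footing, IGFBP3 in MDA-MB-231 was 33.8 times its HMLER level in untreated cells and 3.41 times that level after DAC. These ratios restate values on which the family was chosen.

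**Figure D4:**
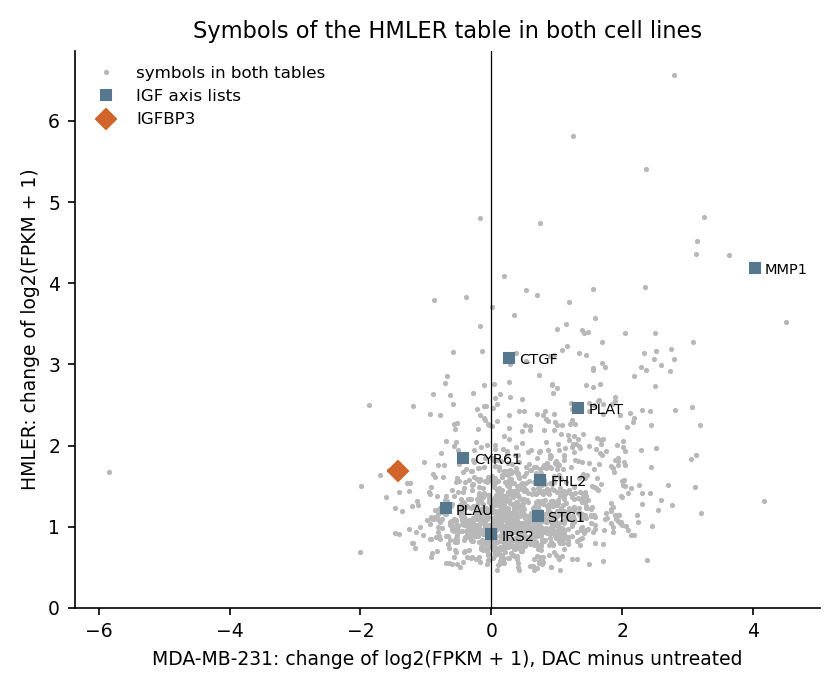
Change of log2(FPKM + 1), DAC minus untreated, in MDA-MB-231 (horizontal axis) and HMLER (vertical axis), for the 1346 symbols of the HMLER table at 1 FPKM or more in MDA-MB-231. IGFBP3 (orange diamond, -1.43 and 1.68) lies to the left of the zero line, and the named squares are genes of the IGF axis lists, with MMP1 far to the right.

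The genes closest to IGFBP3 in their 4 values of log2(FPKM + 1), untreated and DAC in each line, were EEF1D, U2AF1 and ADM, at Euclidean distances of 1.02, 1.03 and 1.05 among the 1346 symbols. EEF1D, a translation elongation factor subunit, was at 175.8 and 129.8 FPKM in MDA-MB-231 and at 4.80 and 17.4 FPKM in HMLER. U2AF1, a splicing factor, was at 95.6 and 53.6 FPKM in MDA-MB-231 and at 5.36 and 12.6 FPKM in HMLER. ADM, the vasodilator peptide adrenomedullin, was at 104.2 and 105.0 FPKM in MDA-MB-231 and at 5.46 and 22.2 FPKM in HMLER. Unlike IGFBP3, none of these genes was past 2-fold in MDA-MB-231, where their ratios were 0.738, 0.560 and 1.01. The likeness rests on values on which the family was chosen and is a description only.

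The genes around the IGFBPs were described from 6 lists with 81 genes in all, of which 53 reached 1 FPKM in MDA-MB-231. Of these, 11 were more than 2-fold higher after DAC, 4 were more than 2-fold lower and 38 lay within 2-fold, with a median log2 change of -0.03. These counts are to be read against the 11.5% and 5.86% of all symbols given above. The HMLER table held 12 of the 81 genes, beside 7.85% of all symbols in the MDA-MB-231 table. Of the 11 higher genes, 7 were in the list of proteases and their inhibitors. With 1 FPKM asked for in both libraries, 5 genes of the 6 lists were higher, as were 510 of all symbols (1428 as reported).

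Transcripts of the IGFs themselves were hardly detected in MDA-MB-231. IGF1 was at 0.00659 and 0.00327 FPKM, under the detection floor. IGF2 was at 2.35e-06 FPKM in untreated cells and 0.104 FPKM after DAC, about 21.9 inferred reads, and in HMLER another IGF2 transcript was at 0.0361 and 6.40 FPKM. INS was listed at 0 in both MDA-MB-231 libraries. The receptors lay within 2-fold, with IGF1R at 4.85 and 4.56 FPKM, the IGF2 scavenger IGF2R at 27.5 and 22.1 FPKM and the insulin receptor INSR at 2.30 and 1.68 FPKM, while the orphan receptor INSRR was listed at 0 and 0.0118 FPKM.

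Among 24 genes, namely IGFALS of the ternary complex, proteases that cut IGFBPs and inhibitors of these proteases, 11 reached 1 FPKM. Of these, 7 were more than 2-fold higher after DAC, beside 11.5% of all symbols, and 1 was more than 2-fold lower. The median log2 change was 0.76. STC2, MMP3, C1R and BMP1 reached 1 FPKM only in the DAC-treated library, so the filter admitted them through the library where they were high. The count of 7 rests partly on these genes, and the median is the value of 1 of them, BMP1. Of the other genes at 1 FPKM or more, STC1 (log2 change 0.71), PLAT (1.32) and MMP1 (4.03) were higher. HTRA1 (-0.97), PLAU (-0.70), ADAM9 (-0.42) and CTSD (-0.28) had negative changes. Without the genes admitted through the DAC-treated library alone, the median would thus be negative. MMP1, an interstitial collagenase, was at 16.2 and 278.5 FPKM in MDA-MB-231, and at 7.10 and 147.1 FPKM in HMLER. MMP3, stromelysin, which cuts IGFBP3, was at 0.318 and 16.4 FPKM. STC2, a stanniocalcin that blocks PAPPA, was at 0.0502 FPKM (0 to 0.146) and 4.72 FPKM (2.03 to 7.41). For STC2 and MMP1 the bounds of the 2 libraries did not overlap, and for the other 9 genes of this list at 1 FPKM or more they did. Over all symbols at 1 FPKM or more, 1.44% had bounds that did not overlap.

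The plasminogen activators were in both tables. PLAT, the tissue type, was at 4.61 and 13.0 FPKM in MDA-MB-231 and at 21.4 and 122.9 FPKM in HMLER. PLAU, urokinase, was at 82.8 and 50.6 FPKM in MDA-MB-231, within 2-fold, and at 41.1 and 97.4 FPKM in HMLER. STC1, the other stanniocalcin, was at 1.18 and 2.56 FPKM in MDA-MB-231 and at 13.9 and 31.6 FPKM in HMLER. The rest of the list past 2-fold in MDA-MB-231 were BMP1 (0.776 and 2.0 FPKM), C1R of the complement system (0.193 and 2.67 FPKM) and, in the lower direction, the serine protease HTRA1 (7.32 and 3.25 FPKM). MMP9 stayed under 1 FPKM in MDA-MB-231 and was at 0.134 and 10.8 FPKM in HMLER.

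**Figure D5:**
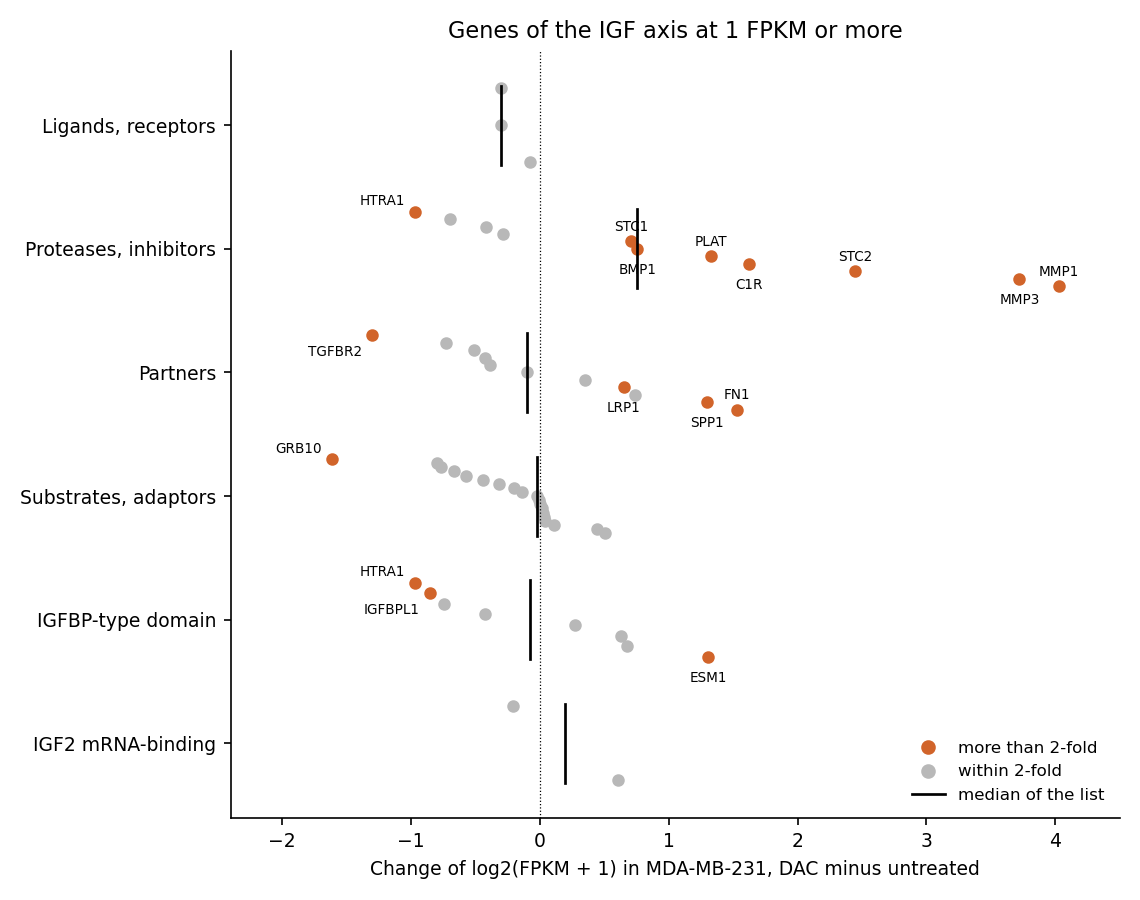
Change of log2(FPKM + 1) in MDA-MB-231, DAC minus untreated, for the genes of 6 IGF axis lists at 1 FPKM or more, with orange points for genes more than 2-fold higher or lower and black bars for the median of each list. The proteases and inhibitors have their median at 0.76 and 7 genes past 2-fold on the right, and the other lists have medians between -0.30 and 0.20. STC2, MMP3, C1R and BMP1 among the 7 reached 1 FPKM only after DAC, and without these genes the median of their list would be negative.

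Of 15 partners of IGFBPs at the cell surface, in the matrix or in the nucleus, 11 reached 1 FPKM. Of these, 3 were more than 2-fold higher and 1 was lower by as much, beside 11.5% and 5.86% of all symbols. Among the 3, LRP1 and SPP1 reached 1 FPKM only in the DAC-treated library, so the filter admitted them through the library where they were high. LRP1, an endocytic receptor that binds IGFBP3, was at 0.570 and 1.47 FPKM, and the matrix protein FN1, fibronectin, at 29.1 and 86.1 FPKM. SPP1, osteopontin, was at 0.000696 FPKM in untreated cells, under 1 inferred read, and at 1.46 FPKM after DAC. The TGF-beta receptor TGFBR2 was at 70.3 and 28.0 FPKM, the same direction as IGFBP3. FHL2, a nuclear partner of IGFBP5, was at 42.9 and 72.4 FPKM in MDA-MB-231 and at 42.5 and 128.6 FPKM in HMLER. TMEM219, known as an IGFBP3 receptor, was at 28.3 and 36.4 FPKM.

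The signalling machinery behind the receptor was covered by 20 substrates and adaptors, of which 19 reached 1 FPKM. Of these, 18 lay within 2-fold and 1, the receptor-binding adaptor GRB10, was lower after DAC, at 4.74 and 0.878 FPKM. Over all symbols at 1 FPKM or more, 11.5% were higher and 5.86% lower, so most symbols also lay within 2-fold. IRS2, an insulin receptor substrate, was at 9.21 and 9.17 FPKM in MDA-MB-231 and at 2.94 and 6.38 FPKM in HMLER.

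Relatives of the family were covered by 13 proteins that share the N-terminal IGFBP-type domain, 8 of them at 1 FPKM or more. CTGF, at 694.7 and 837.3 FPKM, and CYR61, at 528.2 and 392.2 FPKM, both secreted matricellular proteins, had higher values than any IGFBP in MDA-MB-231, with bounds in untreated cells (175.5 to 1214 and 178.3 to 878.0) that overlapped those of IGFBP4 and IGFBP3, and lay within 2-fold there. In HMLER they were at 25.8 and 225.2 FPKM and at 46.5 and 170.2 FPKM. ESM1, an endothelial proteoglycan, was more than 2-fold higher in MDA-MB-231 (33.7 and 84.9 FPKM), and IGFBPL1 (4.05 and 1.79 FPKM) and HTRA1 were more than 2-fold lower. This count of 1 higher and 2 lower among the 8 stands beside 11.5% and 5.86% of all symbols. WISP2 stayed under 1 FPKM in MDA-MB-231 and was at 0.152 and 1.36 FPKM in HMLER. Of the 3 IGF2 mRNA-binding proteins, which share only a name with the carriers, IGF2BP2 (22.7 and 19.6 FPKM) and IGF2BP3 (5.71 and 9.19 FPKM) lay within 2-fold. IGF2BP1 stayed under 1 FPKM in MDA-MB-231, at 0.00548 and 0.915 FPKM, and was at 0.359 and 1.72 FPKM in HMLER.

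The libraries labelled MDA-MB-231 had the markers of a mesenchymal-type breast cancer line, as VIM, AXL, CD44, MSN and CAV1 all exceeded 1 FPKM, while the luminal markers CDH1, ESR1 and PGR were under 0.2 FPKM in both. Of the other luminal markers, KRT18 at 170.7 and 160.9 FPKM, KRT8 at 72.4 and 79.3 FPKM and EPCAM at 7.90 and 9.78 FPKM were present in both. GATA3 was at 0.0840 FPKM in the untreated library and at 1.71 FPKM after DAC, more than 2-fold higher. The summed level of the 5 mesenchymal markers was 3983 FPKM without and 1638 FPKM with DAC, most of it VIM (3066 and 1134 FPKM). VIM and AXL (243.9 and 84.5 FPKM), 2 of the 5, were more than 2-fold lower, beside 5.86% of all symbols. Their bounds in the 2 libraries overlapped and were wide, at 0 to 10419 FPKM for untreated VIM and 0 to 522.2 FPKM for untreated AXL. The 7 luminal markers summed to 251.1 and 251.9 FPKM. Leukocyte and endothelial markers (0 of 4 and 0 of 3 at 1 FPKM) summed to at most 0.850 FPKM, and the 4 fibroblast markers to 0.896 and 16.5 FPKM, nearly all of it COL1A1 (0.853 and 15.6 FPKM). The part of these markers in the IGFBP values was not tested. For HMLER, its table held EPCAM (0.450 and 2.17 FPKM) and a CD44 transcript other than the one used for MDA-MB-231 (1.23 and 8.26 FPKM). As only transcripts more than 2-fold higher are in it, this may not be the whole CD44 level of HMLER.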

How the data were processed

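RNA of 6 libraries was measured by polyA RNA-seq (Illumina TruSeq RNA kit). Per the labels and methods, the authors used TopHat2 (hg19) for alignment and Cuffdiff, on Galaxy, for the deposited FPKM of each RefSeq transcript, and versions and library scaling are not given in the sources used here. The deposited FPKM table of MDA-MB-231 gives 1 value with bounds per library (43497 transcripts), and that of HMLER 1 value per condition, merged over 2 libraries and restricted to 2009 transcripts that were more than 2-fold higher after DAC. Both tables also hold fold changes, and that of HMLER test results, as the authors' own comparisons, which were not used.

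Groups came from the sample titles. A symbol was represented by its transcript of highest FPKM, summed over both conditions. A symbol was called higher or lower at a DAC to untreated ratio above 2 or under 1/2, with at least 1 FPKM in 1 condition or more. Log2 changes used log2(FPKM + 1), which understates the change of low genes. No test across genes was run, since FPKM are not counts and there was 1 value per condition. Reads were inferred from the steps of low FPKM values of transcripts over 2000 bases, with an effective length of the length minus 240 bases. Of 698 and 713 low values, 100% lay within 0.1 of a whole read (20% would by chance). This step and the calls were tested on simulated data.

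Named were the 7 members, the ligands and receptors, list genes at 1 FPKM or more in either line that were past 2-fold in MDA-MB-231 or in the HMLER table, and the 3 symbols nearest to IGFBP3. TMEM219, IGF2BP2, IGF2BP3, POLR2B and the genomic neighbours were added after their values were seen, and marker genes are given as values. The members and lists were chosen with earlier results of these data known. HTRA1 is in 2 lists, and 1 further list gene is not reported here and was left out of the counts. Positions are from GENCODE lifted to GRCh37, the assembly of hg19. Protein sequences were not used here. Alternatives covered the filter, pseudocount, scaling, transcript choice, Cuffdiff status and bounds. Python 3.11.15, numpy 2.4.6, pandas 2.3.3 and matplotlib 3.10.9 were used.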

Additional observations from a re-analysis of the deposited data

Results flagged for a closer look

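IGFBP3 differed in direction between the cell lines. Its change of log2(FPKM + 1) after DAC was 1.68 in HMLER, from 5.12 to 18.6 FPKM, and -1.43 in MDA-MB-231, from 172.9 to 63.6 FPKM, a difference of 3.11. This difference was not tested, as each line has 1 value per condition, and the family was chosen on such a comparison of directions. The HMLER values cover only transcripts more than 2-fold higher after DAC, so a gene with values there could only be higher. The bounds of the MDA-MB-231 values overlapped.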

How the results depend on the processing

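With no filter on low values, 2 IGFBP genes were more than 2-fold higher in MDA-MB-231, IGFBP2 being added to IGFBP6, as were 30 IGF axis genes, and of all symbols 5375 were higher and 1267 lower, against 1, 11, 1428 and 726 as reported. With 1 FPKM asked for in both conditions, 5 axis genes and 510 of all symbols were higher in MDA-MB-231, and 961 symbols were higher in HMLER (1854 as reported). With 5 FPKM in at least 1 condition, 5 axis genes were higher and 2 lower (4 as reported), 467 of all symbols were higher, and 855 in HMLER. A pseudocount of 1 in the ratio gave 2 axis genes lower and 892 of all symbols higher. With bounds that must not overlap, 0 IGFBP genes were higher and 0 lower, against 1 and 2, and 2 axis genes were higher and 0 lower, with 131 and 47 of all symbols. Fewer symbols are eligible by construction under each stricter filter, and the other causes were not tested. Other alternatives left the counts within 1.5 times. Of 23 recomputed log2 changes of the members, 22 stayed within 0.2 and 0 reversed, and IGFBP2 moved from 0.30 to 1.0 with a pseudocount of 0.1. No paired analysis was possible because values per HMLER library are merged and each MDA-MB-231 condition is a single library, and for the same reason no library could be left out.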

Other observations

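Genes of the tensin family, adaptors that link integrins to actin, share chromosomes with IGFBP genes, at distances from 18102 to 1381492 bases, and were looked at after the values of IGFBP1 and IGFBP3 were seen. TNS3, the next protein-coding gene beyond IGFBP3 (1353278 bases away on GRCh37), was at 7.97 FPKM (4.22 to 11.7) without and 2.99 FPKM (1.24 to 4.75) with DAC in MDA-MB-231, a ratio of 0.376 with bounds that overlapped. TNS1, on the chromosome of IGFBP2 (1135151 bases away) and IGFBP5 (1104038 bases), was at 11.0 and 5.74 FPKM, a ratio of 0.519. TNS4, whose nearer end lies 18102 bases beyond IGFBP4, stayed under 1 FPKM in MDA-MB-231 (0.0364 and 0.818 FPKM) and was at 6.42 and 42.5 FPKM in HMLER. TNS2, 33056 bases from IGFBP6, was at 8.94 and 10.3 FPKM in MDA-MB-231. Of all symbols at 1 FPKM or more in MDA-MB-231, 5.86% were lower by more than 2-fold, and these values are given with nothing read from them.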
